A study of Mus musculus with 6 samples.

Results

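The COP9 signalosome genes GPS1, COPS2, COPS3, COPS4, COPS5, COPS6, COPS7A and COPS8 were followed between C2C12 myotubes and C2C12 myoblasts. C2C12 is a line of mouse muscle precursor cells: its myoblasts divide in rich serum and, when serum is lowered, leave the cell cycle and fuse into myotubes with many nuclei. Total RNA had been labelled with biotin and hybridised to 6 HG-U133A arrays, 3 labelled as myotubes, whose medium held 2.5% horse serum, and 3 as myoblasts, whose culture conditions were not given in the sources used here. The members were all probe sets with one of the 8 gene names as their single annotated symbol. There were 13 of them among 22283 probe sets on the array. Of these 13 probe sets, 12 passed a filter on dim signals, and each of the 8 genes kept at least 1, among 8161 genes tested in all. The genes were chosen by their signals on these same 6 arrays, with the myotube to myoblast contrast in view, so their changes are given as a description. Where the threshold of the fit across all genes is named for them, it serves to count them beside the share of all genes, and it is no test of them.

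The COP9 signalosome is a protein complex that removes the ubiquitin-like protein NEDD8 from cullins, the scaffolds of a large family of ubiquitin ligases. NEDD8 on a cullin switches its ligase on, and its removal lets the ligase exchange the receptor that picks its substrates. These ligases mark cell cycle regulators and many other proteins for the proteasome, and skeletal muscle uses several of them in protein turnover. Within the complex COPS5 is the metalloprotease that cuts off NEDD8, COPS6 is its inactive partner of the same domain type, and the other subunits form a scaffold built on PCI domains. The same plan of PCI and metalloprotease-type subunits is found in the proteasome lid and in the translation initiation factor eIF3.

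HG-U133A probes were made for human transcripts, the labels name mouse as the organism, and from which species the RNA came was not settled. Capitals are therefore used for gene names, after the human targets of the probe sets. Replicate numbers are those of the titles, while the run records number myoblast arrays 1, 2 and 3 as 3, 1 and 2. For myoblast array 3 the title gives no stage, so the group was read from the description, whose numbering covers only the first 2 myoblast arrays. Across probe sets, Pearson's r was 0.988 between myoblast arrays 2 and 3 and 0.872 to 0.889 between the other pairs of a group. Between the groups it was 0.737 to 0.881, and myotube array 3 had 0.87 to 0.881 with the myoblast arrays. All myotube arrays shared a chip lot and a scan day that held no myoblast array, so lot and scan day cannot be told apart from stage. Myoblast array 1 shared its scan day with myoblast arrays 2 and 3 and had a chip lot of its own. The run records name no batch, and laboratory series were inferred here from consecutive laboratory codes in them. By these codes myoblast array 1 fell in a series with the 3 myotube arrays, and myoblast arrays 2 and 3 formed a second series. Nothing in the labels says that replicate arrays stem from separate cultures, so errors and p-values cover the spread between arrays alone, and that spread may be technical.

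Markers of the stages went with the labels in part. The summed signal of 10 muscle differentiation markers was 39279 to 47967 on the myotube arrays and 3189 to 10952 on the myoblast arrays, and 7 of 8 tested markers rose. MYOG and CKM, which define differentiating muscle, did not exceed the brightest unspiked control probe set on any array. That control level, between 251.5 and 1040.2 over the arrays, is used here as the limit below which a signal is not told from background. The summed signal of 8 proliferation markers was 6059 to 8615 on the myotube arrays and 32434 to 36867 on the myoblast arrays, and 6 of 8 fell. Fibroblast markers summed to 424016 to 642303 on the myotube arrays and 130930 to 299591 on the myoblast arrays, with 8 of 10 rising, and 3 of 4 tested osteoblast and chondrocyte markers rose, summing to 9696 to 12269.5 on the myotube arrays and 2554 to 5362 on the myoblast arrays. Adipocyte markers summed to 1671 to 3096 on the myotube arrays and 2342 to 2669.6 on the myoblast arrays, and ADIPOQ and PLIN1 were not above the control level on any array. In RNA from a whole culture, fewer cells of a type and less RNA per cell cannot be told apart. The part of these shifts in the values of the COP9 signalosome genes was not tested.

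Most COP9 signalosome genes were lower on the myotube arrays, by less than 2-fold at the brightest probe set of each gene, while COPS6, COPS7A and GPS1 showed little difference or the opposite one. Changes are log2(signal + 197) on the myotube arrays minus the same on the myoblast arrays, with ± for the SE, where 197 is the 25th percentile of all deposited signals. This understates the change of dim probe sets. With each gene taken as its brightest tested probe set, 7 of the 8 changes were negative, as were 43.5% of all genes. The median of the 8 was -0.65, with a range of -0.88 to 0.31, and the median of all genes was 0.12. Past the limma threshold, an adjusted p of 0.05 over all 13329 tested probe sets, were 2 of the 8 genes, COPS3 and COPS8, both lower. Of all genes 6.73% were called lower and 5.39% higher. The 3 myotube signals all lay below the 3 myoblast signals for 3 of the 8 genes, COPS3, COPS4 and COPS8, and for 16.3% of all genes. The choice of the genes used this contrast, so nothing is read from these counts. The count of 2 was 4 without myoblast array 1 and 2 without myotube array 3 (COPS5 and COPS8). It was 0 without any one of myoblast arrays 2 and 3 and myotube arrays 1 and 2. Calls over all genes moved too, from 989 to 2208 without myoblast array 1 and to 1127 without myotube array 3. They were 341 to 423 in the fits with a count of 0.

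COPS3, a PCI subunit of the scaffold, had signals of 1974, 1029 and 1803 on myotube arrays 1, 2 and 3, against 2916, 2938 and 3178 on myoblast arrays 1, 2 and 3. The groups did not overlap, and the myoblast arrays lay close together while myotube array 2 was well below the rest, where it did not exceed the control level. The means were 1602 ± 504 on the myotube arrays and 3011 ± 145 on the myoblast arrays (SD, n = 3 each), a log2 change of -0.88 ± 0.25 or 1.84-fold lower in myotubes.

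COPS8, the smallest of the classical subunits and also a PCI protein, had 4 probe sets. The brightest tested one, 202141_s_at, gave 4497, 4293 and 6054 on the myotube arrays and 8116, 8601 and 9749 on the myoblast arrays. Every myotube signal lay well below every myoblast signal, and the log2 change was -0.82 ± 0.19, or 1.77-fold lower. The probe set 202143_s_at gave 3571, 2998 and 5123 on the myotube arrays against 5864, 6791 and 6576 on the myoblast arrays, again without overlap, at -0.72 ± 0.21. The third, 202142_at, gave 959.5, 6619 and 4667 on the myotube arrays and 7249.9, 7254 and 6389.9 on the myoblast arrays. Its groups overlapped, with myotube array 2 above myoblast array 3, and its change of -1.08 ± 0.51 had a wide error, with myotube array 1 far below the other myotube arrays. The dimmest probe set, 214260_at, was below the filter, with 372.4, 220.8 and 389.4 on the myotube arrays and 465.5, 481.3 and 568.4 on the myoblast arrays. Its myotube signals did not exceed the control level. All COPS8 probe sets had a lower myotube mean.

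COPS4, a PCI subunit placed next to the metalloprotease pair, gave 3379, 2546 and 3884 on the myotube arrays and 3898, 6238 and 6563 on the myoblast arrays. The groups did not overlap, but myotube array 3 and myoblast array 1 were nearly equal. The change was -0.72 ± 0.24.

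COPS2, a PCI subunit also known in human cells as a corepressor that binds nuclear receptors, gave 5197, 3570 and 6909 on the myotube arrays and 6026, 10476 and 8893 on the myoblast arrays at its bright probe set, 202467_s_at. Myotube array 3 was above myoblast array 1, so the groups overlapped, and the change was -0.69 ± 0.27. The dim probe set 209838_at gave 231.7, 610.9 and 291.3 on the myotube arrays against 851.8, 669.7 and 799.3 on the myoblast arrays, without overlap, at -0.81 ± 0.39. It was at or below the control level on 4 of the 6 arrays, the myotube arrays among them. Myoblast array 1 was also not above its control level, so no lower bound is given for this change. Both probe sets pointed the same way.

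**Figure D1:**
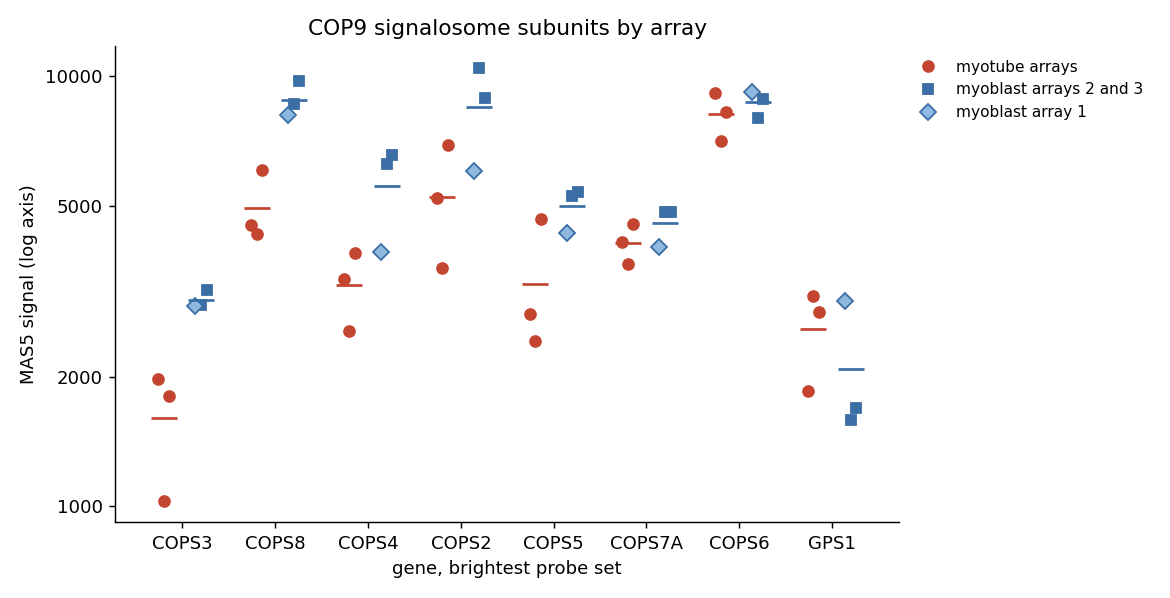
Deposited signal (log axis) of the brightest tested probe set of each COP9 signalosome gene on every array, myotube arrays left of myoblast arrays, with bars at the group means (n = 3 each). Genes stand in the order of their change and are not comparable in level; for COPS3, COPS8 and COPS4 the groups do not overlap, and the diamond is myoblast array 1, which shared a laboratory series with the myotube arrays.

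COPS5, the metalloprotease that carries the complex's activity, gave 2791, 2426 and 4652 on the myotube arrays and 4306, 5259 and 5368 on the myoblast arrays. Myotubes 1 and 2 were lower than every myoblast array, while myotube 3 exceeded myoblast array 1. The means were 3289.6 ± 1194 on the myotube arrays and 4978 ± 584 on the myoblast arrays (SD, n = 3 each), and the change was -0.62 ± 0.24.

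COPS6, the inactive partner of COPS5, gave 9122, 7051 and 8279 on the myotube arrays and 9209, 8006 and 8871 on the myoblast arrays at 201405_s_at. These groups lay within each other's spread, at -0.10 ± 0.18. The second probe set, 213504_at, gave 2143, 2593 and 2353 on the myotube arrays and 2648, 3439 and 3395 on the myoblast arrays. Here the groups did not overlap, although myotube array 2 nearly reached myoblast array 1, and the change was -0.39 ± 0.20. The brighter COPS6 probe set changed sign with the scaling, to 0.06 after quantile normalization.

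COPS7A and COPS7B are paralogs of which one is built into each complex. COPS7A gave 4106, 3651 and 4536 on the myotube arrays and 4008, 4840 and 4843 on the myoblast arrays, overlapping, at -0.15 ± 0.18. COPS7B was not among the 8 genes but is in the list of other subunits. Its signals were 277.1, 121.4 and 926.3 on the myotube arrays and 1181, 1658 and 1615 on the myoblast arrays. It fell 3.01-fold (log2 change -1.59 ± 0.45, limma adjusted p = 0.0483, lower on 3 of 3 myotube arrays than on every myoblast array). It was at or below the control level on 2 arrays, myotube arrays 1 and 2, so this size is taken in part against background. The call was kept in 2 of the 6 fits that left out 1 array. The difference between the changes of COPS7A and COPS7B was not tested.

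GPS1, a PCI subunit first known as a suppressor of G protein signalling, was the exception among the 8 genes. It gave 1852, 3072 and 2825 on the myotube arrays and 2993, 1582 and 1689 on the myoblast arrays. Myotube array 1 lay with myoblast arrays 2 and 3, and myoblast array 1 lay with the other myotube arrays. The change was 0.31 ± 0.28, about the size of its error.

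The arrays differed among themselves in a way that recurred across the genes at their brightest probe sets. There, myotube array 2 had the lowest signal of the 6 arrays for 7 of the 8 genes, and for 18.0% of all genes. Among the dimmer tested probe sets, myotube array 2 was lowest at COPS8 202143_s_at. Myotube array 1 was lowest at COPS2 209838_at, COPS6 213504_at and COPS8 202142_at. At the brightest probe sets, myoblast array 1 was the lowest of the myoblast arrays for 6 of the 8, against 40.9% of all genes. Among the 2041 brightest genes, the share lowest on myotube array 2 was 25.8%. The share with myoblast array 1 lowest of the myoblast arrays was 49.2% there. Only COPS3, COPS4, COPS6 and COPS8 had all 3 myotube signals below that of myoblast array 1, and 26.8% of all genes did. The mean log2 value over the 8 genes was 11.91, 11.68 and 12.18 on the myotube arrays and 12.28, 12.41 and 12.46 on the myoblast arrays. These means did not overlap, and myotube array 3 and myoblast array 1 lay nearest to each other. Since the genes were chosen with this contrast in view, nothing is read from that or from the counts beside all genes.

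A fit that blocks on laboratory series sets the 3 myotube arrays against myoblast array 1. In it the median of the 8 changes was -0.25, and that of all genes -0.0016. COPS3 at -0.83 ± 0.35 and COPS8 at -0.71 ± 0.24 kept most of their size, while COPS4 at -0.26 ± 0.26 and COPS2 at -0.25 ± 0.33 did not. COPS5 was at -0.42 ± 0.33, COPS7A at 0.03 ± 0.22 and GPS1 at -0.23 ± 0.31. In this fit limma called 0 of the 8 genes, and of all genes it called 1.16% lower and 1.63% higher.

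**Figure D2:**
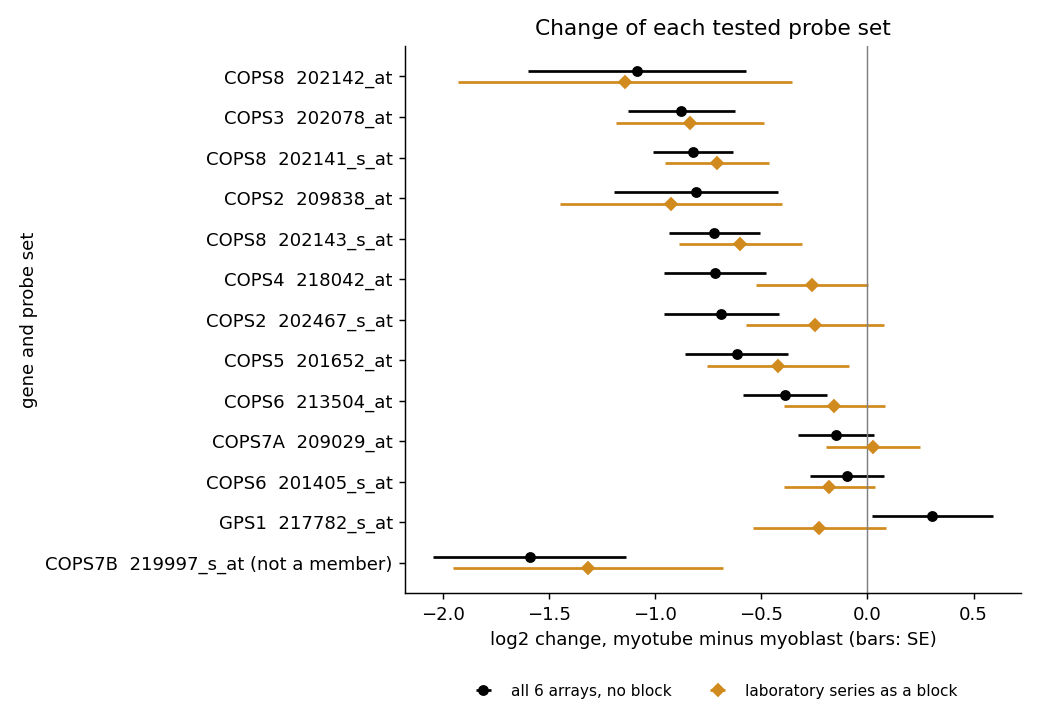
Log2 change (myotube minus myoblast) of the 12 tested COP9 signalosome probe sets and of COPS7B, with the SE as bars; black circles are the fit on 6 arrays and orange diamonds the fit that blocks on laboratory series. The black circles lie left of 0 except for GPS1, and with the block COPS2 202467_s_at, COPS4 and GPS1 shift the most towards or across 0.

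The 8 genes were bright, and the change over all genes varied with brightness. In 4 bins of genes, from the dimmest to the brightest, the median change was 0.38, 0.21, 0.01 and -0.12, and after quantile normalization it was 0.13, 0.06, 0.00066 and -0.03. The brightest bin, of 2041 genes, held 6 of the 8, and 56.8% of its genes had a negative change. After quantile normalization the median of the 8 was -0.55, COPS3 was at -0.91, COPS8 at -0.67, COPS4 at -0.60, COPS2 at -0.56 and COPS5 at -0.53, while COPS7A was at -0.01 and GPS1 at 0.31. The part of brightness in the remaining change was not tested.

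**Figure D3:**
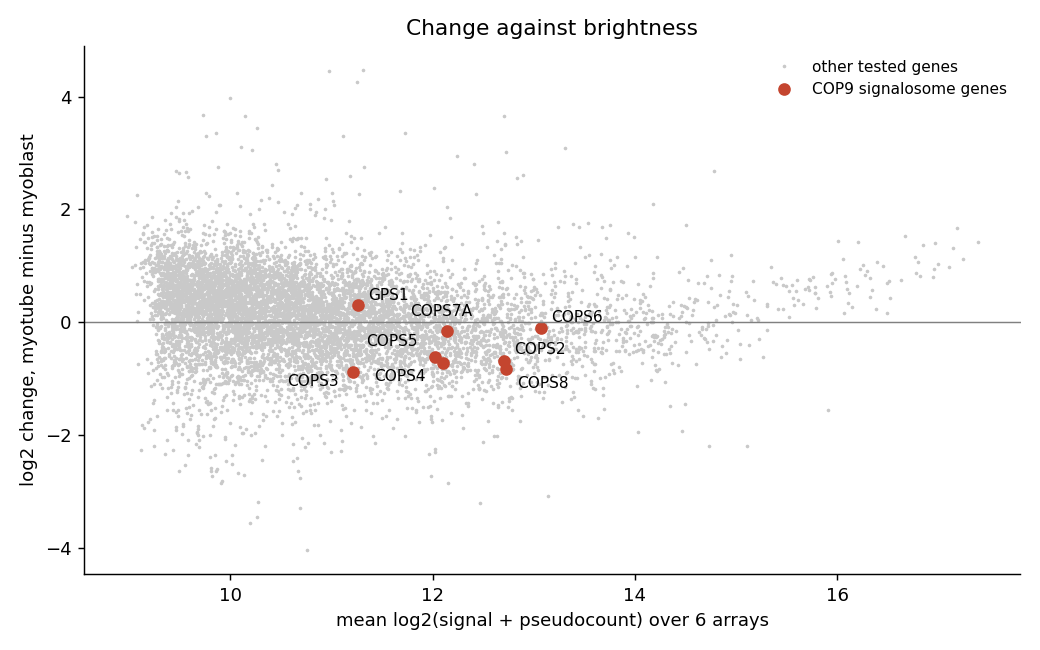
Log2 change (myotube minus myoblast) of every tested gene against its mean log2 brightness over the 6 arrays, with the COP9 signalosome genes in red. The cloud of grey points drifts below 0 as brightness rises to about the level of the red points; COPS2, COPS3, COPS4, COPS5 and COPS8 lie between -0.62 and -0.88, and COPS6, COPS7A and GPS1 nearer to 0.

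The promoters of mouse members are shown for COPS3 and COPS8, whose brightest probe sets differed by the most, and for COPS6, whose bright probe set barely differed. The windows run from 250 bases before to 50 after the RefSeq start on GRCm38.p6, and 7 of the 8 members, all but Cops5, matched, with 9 windows in all. They lie at chr11:59839718-59840017 on the minus strand for Cops3, chr1:90603175-90603474 on the plus strand for Cops8 and chr5:138160852-138161151 on the plus strand for Cops6. Capitals mark matches to the 3 motifs searched, on both strands: the core CCGGAAG of sites for ETS transcription factors, the motif TTCCCGC of the type that E2F factors bind, and the palindromic E box CAGCTG, a form that MYOD1 binds. None of these motifs overlap in these windows.
Cops3: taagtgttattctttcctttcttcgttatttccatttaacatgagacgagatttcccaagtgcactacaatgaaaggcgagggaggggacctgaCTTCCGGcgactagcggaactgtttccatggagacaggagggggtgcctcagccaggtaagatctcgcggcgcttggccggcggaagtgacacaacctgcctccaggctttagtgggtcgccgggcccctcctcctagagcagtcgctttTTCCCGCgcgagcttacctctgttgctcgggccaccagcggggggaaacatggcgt
Cops8: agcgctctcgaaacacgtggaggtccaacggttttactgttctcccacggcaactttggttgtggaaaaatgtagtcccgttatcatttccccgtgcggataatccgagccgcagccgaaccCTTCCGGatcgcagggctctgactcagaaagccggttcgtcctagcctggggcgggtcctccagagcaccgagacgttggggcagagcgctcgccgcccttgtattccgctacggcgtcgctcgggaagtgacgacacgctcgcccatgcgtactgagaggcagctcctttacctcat
Cops6: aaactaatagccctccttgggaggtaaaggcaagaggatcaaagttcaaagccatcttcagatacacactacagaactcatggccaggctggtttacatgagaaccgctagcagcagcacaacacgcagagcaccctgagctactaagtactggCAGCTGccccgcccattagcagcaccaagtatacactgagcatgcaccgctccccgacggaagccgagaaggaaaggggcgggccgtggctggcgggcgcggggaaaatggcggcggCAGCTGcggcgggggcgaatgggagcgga
The ETS core was present in 6 of the 9 member windows and in 8.86% of 32851 mouse promoter windows. It stood in windows of Cops2, Cops3, Cops7a, Cops8 and Gps1, among them genes with little change, and the 2 overlapping Gps1 windows share 1 copy. The E2F-type motif was in 1 of 9 windows, that of Cops3, and in 4.6% of all windows, and the E box was in 1 of 9, that of Cops6 with 2 copies, and in 16.3% of all windows. The motifs were chosen after the signals had been seen, and a match is a description of these letters.

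The enzymes that attach NEDD8, which oppose the complex, included both subunits of the NEDD8-activating enzyme among the genes that fell. UBA3, its catalytic subunit, had 685.2, 683.7 and 1196 on the myotube arrays and 1650.0, 2879 and 2516 on the myoblast arrays (log2 change -1.28 ± 0.30, limma adjusted p = 0.0231). It was at or below the control level on 2 arrays, myotube arrays 1 and 2, so its size too is taken in part against background. NAE1, its regulatory subunit, had 2773, 2073 and 4648 on the myotube arrays and 5312, 5838 and 6272 on the myoblast arrays (-0.91 ± 0.26, limma adjusted p = 0.0496). For both genes every myotube signal lay below every myoblast signal. These were the 2 of 7 tested genes of the NEDD8 list past the threshold, and the list's median was -0.02.

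Among the cullins and their RING subunits 1 of 9 tested genes passed, with a median of -0.42 and 8 of 9 negative. It was RBX1, the RING protein that recruits the ubiquitin-loaded enzyme, with 3131, 4357 and 5457 on the myotube arrays and 6870, 8847 and 8439 on the myoblast arrays (-0.90 ± 0.22, limma adjusted p = 0.0283). All 3 myotube signals were lower than the myoblast ones.

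Of 7 tested adaptors and exchange factors, 1 passed. ELOB, which links cullins to VHL and SOCS receptors, rose, with 17041, 16715 and 17567 on the myotube arrays and 12049, 7651 and 9803 on the myoblast arrays (0.81 ± 0.20, limma adjusted p = 0.0298), and 1 of its 2 tested probe sets was called. The myotube signals were close together and all above the myoblast ones. This list's median was -0.12.

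Of 22 tested substrate receptors, 1 passed, with a list median of -0.0033. DTL, the receptor that marks the licensing factor CDT1 during S phase, had 17.35, 449.1 and 304.8 on the myotube arrays and 1066, 1566 and 1765 on the myoblast arrays (-1.99 ± 0.46, limma adjusted p = 0.0216). The 3 myotube signals were at or below the control level, so this size is taken against background. With the myotube arrays set to that level, as a bound, DTL was at least 1.74-fold lower in myotubes.

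Of 5 tested proteins known to associate with the COP9 signalosome, limma called 0, with 1 at an unadjusted p under 0.05. CSNK2A2, a catalytic subunit of the kinase CK2, had 2302, 1654 and 1843 on the myotube arrays and 1468, 1160.3 and 984.1 on the myoblast arrays (0.61 ± 0.25, limma adjusted p = 0.136). ITPK1, an inositol phosphate kinase found with the complex, had 758.4, 804.2 and 1864 on the myotube arrays against 2311, 1301 and 1285 on the myoblast arrays, at -0.50 ± 0.36 (limma adjusted p = 0.364). The groups did not overlap for CSNK2A2 and did for ITPK1.

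Of 11 tested genes whose proteins' turnover has been tied to cullin ligases or the complex, 2 fell, with a list median of -0.33. They were ID3 and ID1, inhibitors of the myogenic basic helix-loop-helix factors. ID3 had 75.93, 309.8 and 365.3 on the myotube arrays and 5192, 8315 and 7378 on the myoblast arrays (-4.04 ± 0.32, limma adjusted p = 0.000243). Its 3 myotube signals were also at or below the control level, and against that level ID3 was at least 7.50-fold lower in myotubes. ID1 had 1552, 1577 and 1935 on the myotube arrays and 18166, 16129.6 and 16808 on the myoblast arrays (-3.20 ± 0.17, limma adjusted p = 1.68e-05). The groups were far apart for both genes. Like the other lists, this one was made with earlier results of these data known. Signals are of RNA, and protein turnover was not measured.

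The 2 complexes built on the same plan also had members that fell. In the proteasome lid 2 of 7 tested genes passed, with a list median of -0.48. PSMD12, a PCI subunit, had 2179.6, 1477 and 1982 on the myotube arrays and 4261, 4242 and 4232 on the myoblast arrays (-1.11 ± 0.20, limma adjusted p = 0.00808), with 1 of its 2 tested probe sets called. PSMD14, the lid's deubiquitinase and the counterpart of COPS5, had 6201, 6668 and 7613 on the myotube arrays and 12110.1, 10278 and 10520.3 on the myoblast arrays (-0.67 ± 0.17, limma adjusted p = 0.0343). The myotube signals lay below the myoblast ones at both genes. In eIF3, 3 of 12 tested genes fell, with a list median of -0.06. EIF3J, the loosely bound subunit, had 2391, 2951 and 3171 on the myotube arrays and 4161, 6113 and 5974 on the myoblast arrays (-0.88 ± 0.21, limma adjusted p = 0.0252), with 1 of its 2 tested probe sets called. EIF3M, a PCI subunit, was at -0.75 ± 0.21 (limma adjusted p = 0.0451) and EIF3D, which can bind the mRNA cap, at -0.68 ± 0.18 (limma adjusted p = 0.0400). The groups did not overlap for any of these eIF3 genes.

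Over all 9 lists, 12 of 81 tested genes were called lower and 1 higher, beside 6.73% and 5.39% of all genes. Without myoblast array 1 these counts were 19 and 4, and 2208 of all 8161 genes were called, against 989 in the main fit. Leaving out myoblast array 2 or 3 gave 3 lower genes, leaving out myotube array 1 gave 4 and leaving out myotube array 2 gave 5. None of these fits called a list gene higher, and they called 341 to 423 of all genes. Without myotube array 3, 15 list genes were called lower and 0 higher, and 1127 of all genes were called. Of the 13 list calls in the main fit, 3 were kept in each of the 6 fits that left out 1 array, those of ID1, ID3 and PSMD12. With laboratory series blocked, 2 were kept, those of ID1 and ID3. The others had limma adjusted p-values there between 0.0752 and 0.435.

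**Figure D4:**
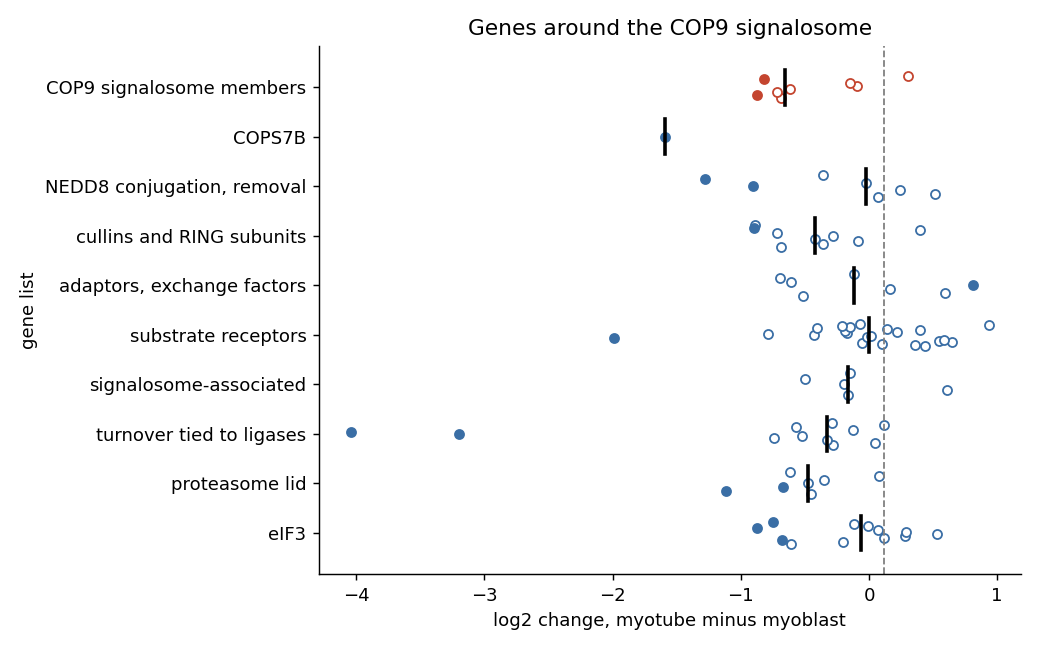
Log2 change (myotube minus myoblast) of the COP9 signalosome genes and of the 9 pathway lists, 1 point per gene, filled where past the limma threshold, with a black bar at the list median and a dashed line at the median of all genes. The medians are -0.65 for the members, -0.48 for the proteasome lid and -0.42 for the cullins; with laboratory series blocked they are -0.25, -0.54 and -0.23.

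The genes whose log2 values over the 6 arrays were most like the mean of the 8 standardised genes were UBAC1, CLASP2, NDUFB3, SAC3D1 and RRAS2, at Pearson's r of 0.993 to 0.994 among 8153 genes compared. UBAC1, a subunit of a ubiquitin ligase, had 661.6, 222.6 and 1265 on the myotube arrays and 1503, 1919 and 1939.8 on the myoblast arrays. On myotube arrays 1 and 2 the signals of UBAC1, CLASP2 and SAC3D1 did not exceed the control level. NDUFB3, a subunit of respiratory complex I, had 4709.7, 4075 and 5788 on the myotube arrays against 6105, 6648 and 6888 on the myoblast arrays. Like the mean of the 8, UBAC1 and NDUFB3 were lowest on myotube array 2 and, among the myoblast arrays, lowest on array 1. With 6 arrays in 2 groups, such correlations share the step between the groups and the differences between arrays.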

How the data were processed

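The values the authors deposited are 1 linear intensity per probe set and array. MAS5 made them, per the submitters' processing notes, which give no version. Their mean between the 2 percent tails was 1500.4 to 1500.5 on every array, as global scaling gives. Arrays have no depth, so precision is limited by their number. Control probe sets, 68 of 22283, were left out, and a result from them is not reported. In the platform annotation 19065 of the rest had 1 symbol, 1043 had several and 2107 had none.

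Groups came from the labels. Values were taken as log2(signal + 197), 197 being the 25th percentile, and probe sets with a mean under the 40th percentile, 474.1, were left out. Myotubes were compared with myoblasts by limma 3.58.1 in R 4.3.3 (two-sided, lmFit and trended eBayes, with statmod 1.5.0). Benjamini-Hochberg adjustment ran over 13329 probe sets, at a threshold of 0.05, and the code was tested on simulated data. A gene was its brightest tested probe set. Named were every member probe set, up to 3 called genes per list and direction, with the 2 smallest p-values standing in for a list without calls, and the 5 genes most like the members. MYOG and CKM were named outside this rule. The members, the 14 gene lists and the laboratory series were chosen with earlier results of these data known. Of 101 symbols in the 9 pathway lists, 86 matched the array and 81 were tested. Alternatives were the pseudocount, the filter, the scaling, the eBayes settings, blocks for replicate number, chip lot and laboratory series, the first series alone, myoblast arrays 2 and 3 averaged, probe sets averaged per gene, and leaving out each array. Promoter sequences are RefSeq's on GRCm38.p6. Figures were drawn with matplotlib 3.10.9.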

Additional observations from a re-analysis of the deposited data

How the results depend on the processing

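Over the 18 alternatives that give a value per probe set, the tested probe sets of COPS2, COPS3, COPS4, COPS5 and COPS8 and the second one of COPS6 kept a negative change. The bright COPS6 probe set turned to 0.061 after quantile normalization and ranged from -0.18 to 0.0016 when 1 array was left out, with 0.0016 without myotube array 2. With the laboratory series as a block and in the first series alone, COPS7A turned to 0.025 and GPS1 to -0.23, and the median of the 8 genes was -0.25. It ranged from -0.86 to -0.44 when 1 array was left out. The number of COP9 signalosome genes called lower, 2, was 1 with the pseudocount at the 10th percentile, without the filter, after quantile normalization and with robust eBayes, 3 with probe sets averaged per gene, and 0 without the trend, with chip lot as a random block, with the series block, in the first series alone and with myoblast arrays 2 and 3 averaged. Leaving out 1 array gave 0 to 4. Calls over all genes, 989 in the main fit, were 953 with the pseudocount at the 10th percentile. They were 822 without the filter, where more genes were tested, and 932 after quantile normalization. With robust eBayes they were 967, and with probe sets averaged per gene 1087.

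The 1510 probe sets and 989 genes called were 917 and 609 without the trend, 401 and 284 with chip lot, 338 and 228 with the series block, 174 and 121 in the first series alone, and 573 and 391 with myoblast arrays 2 and 3 averaged. Leaving out 1 array gave 493 to 3468 probe sets and 341 to 2208 genes. Of the 12 list genes called lower and 1 higher, 5 and 0 were called without the trend, 3 and 0 with chip lot, 2 and 0 with the series block, 2 and 0 in the first series alone, and 3 and 0 with the averaged arrays. Leaving out 1 array gave 3 to 19 lower and 0 to 4 higher. The cause of these moves was not tested, and the fits that leave out or average arrays hold fewer samples.

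Replicate numbers do not pair the arrays by the labels, and the deviations of same-numbered arrays from their group means correlated at 0.25, -0.184 and 0.38. These numbers are those of the titles, and the other numbering in the run records was not tested. With the replicate number as a block, 2314 probe sets and 1502 genes were called, with 3 COP9 signalosome genes lower (COPS3, COPS4 and COPS8), 16 list genes lower and 2 higher, and the members' median of -0.65 is the same by construction. The first series alone has 1 myoblast array, which is taken to vary as the 3 myotube arrays do, and in the series block the error also takes in myoblast arrays 2 and 3, which may be too alike. No lot held both groups, so that fit cannot separate lot from stage. Signals near the control level limit COPS7B, UBA3, DTL, ID3, ITPK1 and the dim probe sets of COPS2 and COPS8, and COPS3 on myotube array 2. They also limit UBAC1, CLASP2 and SAC3D1 on myotube arrays 1 and 2.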
